A study of Homo sapiens with 12 samples.

Results

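The genes of DNA replication and S phase were followed across HepG2 cells, an established human hepatoma line, in which p53 was or was not knocked down and which received a stimulator of p53. The set held 41 genes out of the 18417 with a probe set that the platform annotation pairs with exactly 1 symbol, and each gene was read from its brightest such probe set over the 12 arrays. All 41 had a probe set, and all 41 were bright enough to be tested. They were arranged by role as 11 genes of origin licensing, 8 of helicase activation and the fork, 14 of the polymerases, clamp and ligase, 4 of deoxynucleotide (dNTP) supply and 4 of chromatin assembly and S phase control. The line called sh-con carried a small-hairpin RNA unrelated to p53, and the line called sh-p53 carried a small-hairpin RNA against p53, so both lines expressed a hairpin. Cells of each line received DMSO, the solvent control, or 10 uM Nutlin, which keeps p53 from binding its ubiquitin ligase MDM2, or 0.5 mM AICAR, which activates the energy-sensing kinase AMPK, in each case for 24 h. Each of the 6 groups of line and treatment had 2 arrays. Wells were seeded with 700000 cells in biological duplicate, and 200 ng of total RNA was used for each array. No further line or clone is named for either hairpin, so a difference that comes with the line cannot be told apart from knockdown of p53. All p-values rest on the spread within pairs of duplicates.

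DNA is copied once per cell cycle. In G1, the origin recognition complex with CDC6 and CDT1 loads the MCM2-7 helicase onto origins, which is called licensing. On entry into S phase, CDC45 and the GINS complex join the helicase, and the primase and polymerases, the sliding clamp with its loader, and the enzymes that join the lagging strand follow it. Most of these genes are transcribed as cells pass from G1 into S phase, driven by E2F factors that the retinoblastoma family holds back when p21, the product of the p53 target CDKN1A, inhibits the cyclin-dependent kinases. The arrays measured RNA of whole cultures, in which a smaller share of cells in S phase and less of a transcript per cell cannot be told apart.

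The start regions of 6 members are shown because they include the 3 genes that were lowest with Nutlin relative to DMSO in sh-con (CLSPN, DTL and CDC6) and the 3 that did not pass the test there (GMNN, PCNA and LIG1). Each covers 250 bases before to 50 bases after the annotated start, read 5′ to 3′ along the gene from RefSeq on GRCh38.p14. The regions are CLSPN at chr1:35769929-35770228 (minus strand), DTL at chr1:212035498-212035797 (plus strand) and CDC6 at chr17:40287629-40287928 (plus strand). The others are GMNN at chr6:24774687-24774986 (plus strand), PCNA at chr20:5126573-5126872 (minus strand) and LIG1 at chr19:48170295-48170594 (minus strand). Capitals mark matches on either strand to E2F-like motifs (TTTCGCGC, TTTGGCGC, TTTCCCGC or TTTGCCGC), to the CHR element (TTTGAA or TTCGAA) and to the CCAAT box (CCAAT), and no motif overlaps another in these letters.
CLSPN: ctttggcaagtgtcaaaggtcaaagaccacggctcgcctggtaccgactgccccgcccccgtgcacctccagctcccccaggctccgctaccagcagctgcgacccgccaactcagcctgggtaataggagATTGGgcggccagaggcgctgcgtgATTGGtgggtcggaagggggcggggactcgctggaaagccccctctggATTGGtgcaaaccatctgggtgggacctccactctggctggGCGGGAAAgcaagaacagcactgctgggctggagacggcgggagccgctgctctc
DTL: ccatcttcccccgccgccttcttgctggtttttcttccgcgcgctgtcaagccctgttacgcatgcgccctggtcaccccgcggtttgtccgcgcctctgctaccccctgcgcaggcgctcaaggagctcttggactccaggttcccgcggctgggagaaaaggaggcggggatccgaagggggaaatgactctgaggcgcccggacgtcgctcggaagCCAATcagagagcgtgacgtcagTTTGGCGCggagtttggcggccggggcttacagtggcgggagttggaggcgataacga
CDC6: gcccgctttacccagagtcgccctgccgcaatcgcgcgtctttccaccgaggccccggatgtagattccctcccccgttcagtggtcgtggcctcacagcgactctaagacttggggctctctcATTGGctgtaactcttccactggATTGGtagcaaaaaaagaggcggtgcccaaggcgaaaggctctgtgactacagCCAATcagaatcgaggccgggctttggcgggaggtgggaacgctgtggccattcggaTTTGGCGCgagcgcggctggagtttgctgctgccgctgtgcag
GMNN: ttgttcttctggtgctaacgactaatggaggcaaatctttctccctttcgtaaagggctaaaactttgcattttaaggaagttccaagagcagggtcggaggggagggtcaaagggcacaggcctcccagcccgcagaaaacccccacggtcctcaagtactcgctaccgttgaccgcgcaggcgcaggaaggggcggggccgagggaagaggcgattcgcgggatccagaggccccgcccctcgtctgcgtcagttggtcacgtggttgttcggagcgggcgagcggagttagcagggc
PCNA: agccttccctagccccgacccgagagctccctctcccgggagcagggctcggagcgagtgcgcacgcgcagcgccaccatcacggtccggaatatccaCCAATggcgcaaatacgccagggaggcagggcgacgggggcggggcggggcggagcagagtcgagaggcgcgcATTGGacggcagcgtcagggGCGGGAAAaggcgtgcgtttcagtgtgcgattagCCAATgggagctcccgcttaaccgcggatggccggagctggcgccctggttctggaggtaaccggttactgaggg
LIG1: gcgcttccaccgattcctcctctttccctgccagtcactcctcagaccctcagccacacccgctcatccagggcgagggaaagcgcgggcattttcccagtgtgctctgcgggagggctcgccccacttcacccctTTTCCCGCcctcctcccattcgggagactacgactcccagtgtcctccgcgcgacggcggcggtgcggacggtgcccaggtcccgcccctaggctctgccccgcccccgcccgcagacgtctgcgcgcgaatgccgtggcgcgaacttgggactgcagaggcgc
An E2F-like match begins 5 bases before the start in CLSPN, 8 before it in DTL, and 7 after it in CDC6. PCNA has a match 59 bases and LIG1 114 bases before the start, and GMNN has no match to any motif in this window. Over the 37 members with an entry, 20 (54.05%) hold an E2F-like match, against 3.3% of all 34796 start regions of the same length. Each member was counted once, by its first listed region, whereas a gene can have several regions among the 34796. A CCAAT box stands in 21 (56.76%, against 34.62% of all) and a CHR in 2 (5.41%, against 16.38%). E2F-like matches occur in 18 of the 34 members that fell with Nutlin in sh-con and in 2 of the 3 that were not called, so such a match is found in both. By role, 6 of 9 licensing, 4 of 7 fork, 7 of 13 polymerase, 1 of 4 dNTP and 2 of 4 chromatin members hold an E2F-like match. A match is a description of these letters and was not tested as a binding site.

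The values are log2 levels, on which a difference of 1 is a 2-fold change, and the median over all probe sets was 5.64 to 5.84 in the 12 arrays. The hepatocyte markers measured, 10 in number (albumin, apolipoproteins, fibrinogen and others), had means of 10.8 to 12.8, while 5 of 5 endothelial and 3 of 4 leukocyte markers lay below the level of 4.58 under which genes were left out as dim. Of 5 fibroblast markers 1 was below it and the highest stood at 6.47. The hairpin's own target transcript was not analysed here. Its place as a check of the labels was taken by CDKN1A, whose means of 2 arrays in sh-con were 6.99 with DMSO, 9.84 with Nutlin and 9.26 with AICAR, against 6.23, 7.62 and 7.99 in the same order for sh-p53. Duplicates had a correlation over genes of 0.990 to 0.996 (Pearson r). The replication genes nevertheless shifted together between duplicates in most groups. Replicate 1 was higher than replicate 2 in 39 of 41 in sh-con DMSO, in 38 in sh-p53 Nutlin and in 37 in sh-con AICAR. The shares of all genes there were 58.4%, 58.4% and 60.7%. In sh-p53 DMSO and sh-p53 AICAR it was higher in 5 and 1 members, against 47.1% and 38.3% of all genes. In sh-con Nutlin it was higher in 27 of 41, near the 61.2% of all genes. The median shift of the members between duplicates was 0.115 to 0.227 in size, against -0.077 to 0.082 for all genes, so the errors of the members are shared and a count of members is not a count of independent observations.

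With DMSO alone, no replication gene was called between the 2 lines. The member medians, relative to the sh-con DMSO means, were 0.06 and -0.06 in the sh-con DMSO arrays and -0.06 and 0.08 in the sh-p53 DMSO arrays, and these overlap. No member was called between the lines with limma at an adjusted p under 0.05, against 0.261% of all genes tested called higher and 0.384% called lower, and 0 members had an unadjusted p under 0.05, against 2.29% of all genes higher and 3.33% lower. The differences of sh-p53 from sh-con ran from -0.30 ± 0.15 (SE) for GINS2 to 0.28 for CDC45, with a median of -0.01. In dNTP supply, TYMS differed by -0.21 and RRM2 by -0.19, and in chromatin control DTL differed by -0.09. In 15 members both arrays of one line lay beyond both of the other, 9 of them higher and 6 lower in sh-p53. Over all genes tested, 17.0% were higher and 20.6% lower without overlap.

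**Figure D1:**
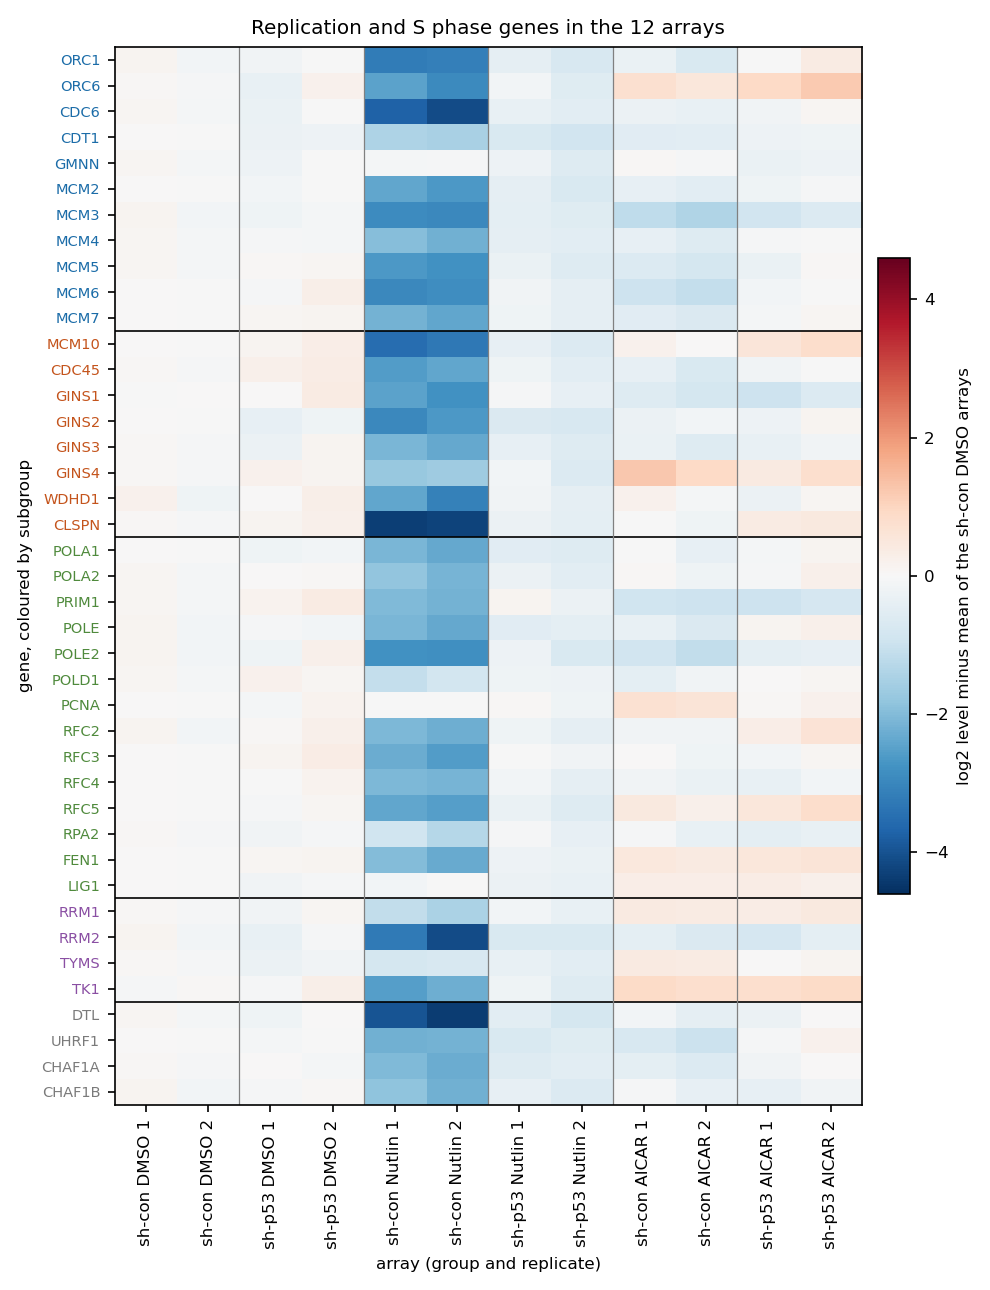
Log2 level of each of the 41 genes (rows, by role) in each of the 12 arrays (columns), minus the mean of the 2 sh-con DMSO arrays; the colour bar gives the scale in log2 units. The 2 sh-con Nutlin columns are blue for 38 genes, with GMNN, PCNA and LIG1 near 0, while the AICAR columns hold both colours.

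With Nutlin in the sh-con line nearly the whole replication programme fell. In the sh-con Nutlin arrays the member medians, relative to sh-con DMSO, were -2.17 and -2.35. At an adjusted p under 0.05 with limma, 38 of 41 members fell, which is 92.7% of them, against 18.9% of all genes tested, and none rose, against 11.3%. None was higher at an unadjusted p under 0.05 either, against 18.4%. The median of the members was -2.24, a level of 21.2% of that in DMSO, against 0.01 for all genes. At least a 2-fold fall was seen in 36 members, and the share of all genes that fell this far was not computed. In each of the 38 both sh-con Nutlin arrays lay below all 10 other arrays of the study. The share of all genes that meets this rule was not computed. By the looser rule of both Nutlin arrays below both DMSO arrays in sh-con, the share over all genes was 37.1%. All 38 calls held under every alternative tried, including leaving out each array.

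Origin licensing fell in 10 of 11 members, with a median of -2.70. CDC6, which helps load the helicase at origins, had levels of 10.27 and 10.11 with DMSO in sh-con, against 6.46 and 6.07 with Nutlin. In sh-p53 it stood at 9.89 and 10.16 in DMSO and at 9.86 and 9.71 with Nutlin. Only the sh-con Nutlin arrays were low, and the fall in sh-con was 3.92 ± 0.16 (SE, 2 arrays against 2; adjusted p = 8.6e-12), or 15.2-fold. ORC1, an ATPase subunit of the origin recognition complex, went from 8.08 and 7.86 to 4.74 and 4.84 in sh-con, a fall of 3.18 ± 0.17. ORC6, another subunit of that complex, fell by 2.70 ± 0.20, and CDT1, which brings the helicase to the origin, fell by 1.45 ± 0.13. The MCM helicase fell as a whole, from -2.08 ± 0.14 for MCM4 to -2.92 ± 0.15 for MCM3, and its 6 subunits thus lay within a range of less than 1 on the log2 scale. MCM3 went from 9.99 and 9.76 in sh-con DMSO to 6.97 and 6.92. The exception was GMNN, which encodes geminin, the inhibitor that binds CDT1 and blocks a repeat of licensing. GMNN stood at 8.95 and 8.78 in DMSO and at 8.76 and 8.82 with Nutlin in sh-con. These arrays overlap, and the difference was -0.07 ± 0.15 (95% interval -0.39 to 0.24; adjusted p = 0.716).

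All 8 genes of helicase activation and the fork fell, with a median of -2.69. CLSPN encodes claspin, the fork protein through which ATR activates CHK1. Its levels in sh-con were 8.51 and 8.41 with DMSO but 4.14 and 4.21 with Nutlin, against 8.58 and 8.69 in sh-p53 DMSO and 8.19 and 8.0 in sh-p53 Nutlin. The fall in sh-con was 4.28 ± 0.13 (adjusted p = 5.78e-13), or 19.5-fold, into a range below the dim level, so its size is uncertain, and a dimmer probe set of CLSPN differed by -3.39. MCM10, which helps the assembled helicase begin to unwind, went from 8.27 and 8.25 to 4.77 and 4.98, a fall of 3.38 ± 0.15. GINS2 fell by 2.79 ± 0.15, from 8.80 and 8.76 to 5.82 and 6.15. The other GINS subunits, the helicase partner CDC45 and WDHD1, which ties the helicase to polymerase alpha, fell by 1.69 (GINS4) to 2.76 (WDHD1).

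Among the polymerases, clamp and ligase 12 of 14 members fell, with a median of -2.13. POLE2, a subunit of the leading-strand polymerase epsilon, went from 7.43 and 7.18 in sh-con DMSO to 4.51 and 4.50 with Nutlin. This fall of 2.80 ± 0.17 also ended below the dim level, so that its size is uncertain. The clamp loader subunits RFC5 and RFC3 fell by 2.47 ± 0.15 and 2.42 ± 0.15, RFC2 and RFC4 by 2.15 and 2.11, and FEN1, the nuclease that trims Okazaki fragments, by 2.15. POLA1, POLA2 and PRIM1 of the polymerase alpha-primase complex fell by 2.23, 1.97 and 2.09. The smallest falls were those of POLD1, the catalytic subunit of polymerase delta (0.98 ± 0.15), and RPA2, a subunit of the single-strand binding protein (1.11 ± 0.16). PCNA, the sliding clamp, stood at 10.88 and 10.81 in DMSO and at 10.82 and 10.84 with Nutlin. LIG1, which seals Okazaki fragments, stood at 7.72 and 7.68 and at 7.59 and 7.70. In both genes the groups overlap, and the differences were -0.01 ± 0.14 (95% interval -0.31 to 0.29; adjusted p = 0.957) and -0.06 ± 0.13 (-0.33 to 0.22; adjusted p = 0.757).

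The 4 dNTP genes all fell, over a wide range around a median of -1.84. RRM2, the small and cell-cycle regulated subunit of ribonucleotide reductase, had sh-con levels of 9.12 and 8.88 with DMSO, against 5.73 and 4.88 with Nutlin. It fell by 3.69 ± 0.21 (adjusted p = 3.27e-10), and its Nutlin arrays were 0.85 apart, whereas RRM1, the large subunit, went from 9.74 and 9.67 to 8.56 and 8.23 and fell by 1.31 ± 0.15. TK1, the thymidine kinase of the salvage pathway, went from 8.96 and 9.06 to 6.50 and 6.78, a fall of 2.37 ± 0.16. TYMS, the thymidylate synthase, fell least, by 0.76 ± 0.13. The 4 chromatin and S phase control genes fell with a median of -2.17. DTL, a substrate receptor of the CRL4 ubiquitin ligase that destroys CDT1 during S phase, went from 9.11 and 8.95 to 5.07 and 4.67, or by 4.16 ± 0.17 (17.9-fold). UHRF1, which brings maintenance DNA methylation to new DNA, went from 8.88 and 8.86 to 6.66 and 6.71 (fall of 2.18 ± 0.14), although a dimmer probe set of UHRF1 differed by 0.14. CHAF1A and CHAF1B, subunits of the chromatin assembly factor, fell by 2.16 ± 0.14 and 2.03 ± 0.16.

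In the sh-p53 line the same dose of Nutlin gave small differences of 1 sign, none of which passed the test. The member medians of the sh-p53 Nutlin arrays, relative to sh-con DMSO, were -0.27 and -0.49. With limma 0 of 41 members were called, against 0.0796% of all genes tested called higher and 0.00% called lower, while an unadjusted p under 0.05 was reached by 32 lower members, against 4.08% of all genes, and by 0 higher members, against 2.14%. All 41 differences were negative, from -0.73 ± 0.15 for MCM10 (adjusted p = 0.102) to -0.10 ± 0.16 for RPA2, around a median of -0.41. In 36 members both Nutlin arrays lay below both DMSO arrays, against 20.7% of all genes. Both sh-p53 DMSO and sh-p53 Nutlin duplicates shift as a block, as given above, so these 41 signs are not independent. The medians by role were -0.40 for licensing, -0.48 for the fork, -0.37 for the polymerases, -0.35 for dNTP supply and -0.53 for chromatin control. MCM10 passed when more dim genes were left out (adjusted p = 0.0356), with the spread as a trend on level (0.0408) and with the arrays of this comparison alone (0.00982), and CDC45 with the arrays alone (0.0427). Without sh-con AICAR replicate 1 or 2, arrays outside the comparison, MCM10 was also called (adjusted p = 0.0438 each). CDKN1A itself rose by 1.39 ± 0.13 with Nutlin in sh-p53 (adjusted p = 6.67e-05), against 2.84 ± 0.13 in sh-con.

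**Figure D2:**
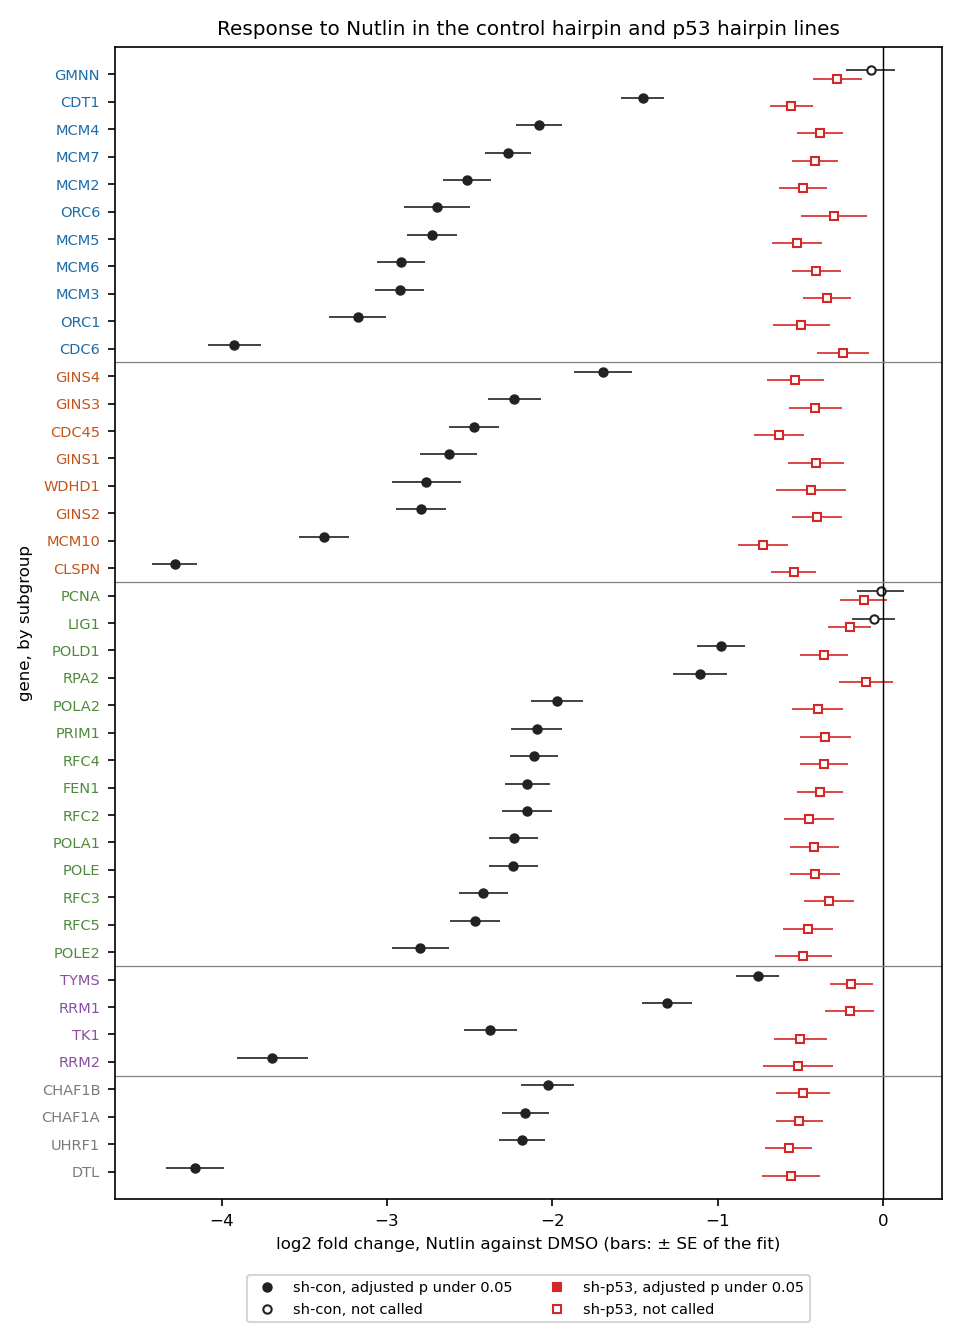
Log2 fold change of each gene (rows, by role) with Nutlin against DMSO in sh-con (black circles) and sh-p53 (red squares), with bars of ± 1 SE of the fit over 2 arrays against 2; filled symbols passed at an adjusted p under 0.05. The sh-con values spread from -4.28 to -0.01, and the sh-p53 values lie between -0.73 and -0.10 with no filled symbol.

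The difference between the lines was tested as an interaction, the Nutlin response in sh-p53 minus that in sh-con. It was positive and called for 36 of 41 members (87.8%, against 4.67% of all genes), with none called negative, against 2.73%, and 0 negative at an unadjusted p under 0.05, against 7.44%. The median was 1.83. CLSPN had the highest value (3.74 ± 0.19, adjusted p = 1.44e-09), followed by CDC6 (3.68 ± 0.23) and DTL (3.61 ± 0.25). A dimmer probe set of CLSPN gave 2.72, so the place of CLSPN depends on the probe set. The brightest one also fell below the dim level in sh-con Nutlin. RRM2 stood at 3.18 ± 0.30, ORC1 at 2.69 ± 0.24 and MCM3 at 2.58 ± 0.21. The 5 members not called were GMNN (-0.20 ± 0.21), LIG1 (-0.14 ± 0.18), PCNA (-0.10 ± 0.20), TYMS (0.57 ± 0.18, adjusted p = 0.0758) and POLD1 (0.62 ± 0.21, adjusted p = 0.0823). TYMS and POLD1 passed under some alternatives, and the call of RPA2 (1.01 ± 0.23, adjusted p = 0.00944) was lost without sh-con DMSO replicate 1, sh-con Nutlin replicate 2, sh-p53 DMSO replicate 1 or sh-p53 Nutlin replicate 1 (adjusted p = 0.0511 to 0.0704). Among the 38 members that fell in sh-con, the log2 difference in sh-p53 was 6.15% (CDC6) to 38.0% (CDT1) of that in sh-con, with a median of 18.1%. Set against each other within Nutlin, the sh-p53 arrays were higher than the sh-con arrays for 37 of 41 members (against 13.1% of all genes), by a median of 1.96. None was called lower with limma, against 8.31%, and 1, GMNN, was lower at an unadjusted p under 0.05, against 13.7% of all genes. TYMS (0.35 ± 0.13, adjusted p = 0.0625), GMNN (-0.34 ± 0.15), LIG1 (-0.25 ± 0.13) and PCNA (-0.06 ± 0.14) were not called.

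AICAR in the sh-con line gave a divided picture: most of the licensing helicase was lower, and most of the dNTP genes were higher. The rises of the dNTP genes RRM1 and TYMS were lost under some alternatives, and RRM2 differed in the other direction. The member medians were -0.15 and -0.35 in the sh-con AICAR arrays, relative to sh-con DMSO. Of 41 members 16 fell (39%, against 23.2% of all genes) and 7 rose (17.1%, against 14.6%), so the share that rose was near that of all genes. The median was -0.23, against 0.04 over all genes. The AICAR and Nutlin comparisons share the sh-con DMSO arrays, so their values are given side by side without an overlap between them. Array centring moved the member values by -0.14 and left 3 higher and 18 lower, while quantile normalisation again left 9 and 15. The counts also rest on single arrays: 3 rose without sh-con DMSO replicate 1, sh-con DMSO replicate 2 or sh-con AICAR replicate 1, and 8 fell without sh-con DMSO replicate 1 and 9 without sh-con AICAR replicate 2. Under every alternative, 11 of the 23 calls held.

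Of the 11 licensing genes 8 fell and 1 rose with AICAR in sh-con (against 23.2% and 14.6% of all genes), with a median of -0.49. All 6 MCM subunits fell, from MCM2 (-0.44 ± 0.15, adjusted p = 0.0246) to MCM3 (-1.28 ± 0.15, adjusted p = 2.73e-06). MCM3 stood at 8.70 and 8.47 with AICAR, below both DMSO arrays (9.99 and 9.76) and above both Nutlin arrays (6.97 and 6.92). MCM6 went from 8.46 and 8.40 to 7.46 and 7.33 and fell by 1.04 ± 0.15, and MCM5 fell by 0.72 ± 0.15. The falls of MCM2 and MCM4 were lost without sh-con DMSO replicate 1 (adjusted p = 0.135 and 0.127) or sh-con AICAR replicate 2 (0.121 and 0.105), as were those of ORC1 (0.221 and 0.26), and that of MCM2 also without sh-con DMSO replicate 2 (0.0741). CDT1 fell by 0.49 ± 0.13, a call that ended without sh-con DMSO replicate 1 (adjusted p = 0.0502). ORC6 went the other way, from 8.64 and 8.52 to 9.31 and 9.11, a rise of 0.64 ± 0.20 (adjusted p = 0.0183). Centring each array ended this call (adjusted p = 0.0684), as did leaving out sh-con DMSO replicate 1 (0.0507), sh-con DMSO replicate 2 (0.088) or sh-con AICAR replicate 1 (0.0677). CDC6 (-0.30 ± 0.16, adjusted p = 0.14) and GMNN (0.00 ± 0.15) were not called.

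The fork genes split within a single complex. GINS4 rose with AICAR in sh-con by 1.08 ± 0.17 (adjusted p = 0.000101), from 7.34 and 7.23 to 8.54 and 8.19. GINS1 fell by 0.69 ± 0.17 (adjusted p = 0.00393), from 9.57 and 9.60 to 8.99 and 8.79. GINS3 fell by 0.45 ± 0.16 (adjusted p = 0.0358) and GINS2 differed by -0.20 ± 0.15, so the 4 GINS subunits, which form a tetramer, did not move alike. CDC45 fell by 0.54 ± 0.15, while MCM10 (0.11 ± 0.15), WDHD1 (0.05 ± 0.21) and CLSPN (-0.10 ± 0.13) were not called. The falls of CDC45 and GINS3 were lost without sh-con DMSO replicate 1 (adjusted p = 0.0744 and 0.211) or sh-con AICAR replicate 2 (0.111 and 0.25), that of GINS3 also without sh-con DMSO replicate 2 (0.0636) and after quantile normalisation again (0.0574). The calls of GINS4 and GINS1 held under every alternative.

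Of the 14 polymerase, clamp and ligase genes 3 fell and 2 rose with AICAR in sh-con, shares near the 23.2% and 14.6% of all genes tested. POLE2 fell by 1.02 ± 0.17, from 7.43 and 7.18 to 6.42 and 6.16, and PRIM1, the catalytic primase subunit, by 0.94 ± 0.15, from 8.73 and 8.54 to 7.71 and 7.69. POLE, the catalytic subunit of polymerase epsilon, fell by 0.50 ± 0.15, a call lost without sh-con DMSO replicate 1 (adjusted p = 0.171) or sh-con AICAR replicate 2 (0.153). PCNA rose by 0.66 ± 0.14 (adjusted p = 0.00133), from 10.88 and 10.81 to 11.56 and 11.45, and both AICAR arrays stood above every other array of the study. FEN1 rose by 0.45 ± 0.14 (adjusted p = 0.0161), a call lost when arrays were centred (adjusted p = 0.145) and without sh-con DMSO replicate 1 (0.0641), sh-con DMSO replicate 2 (0.0929) or sh-con AICAR replicate 1 (0.0514). The other 9 ranged from -0.30 (POLD1) to 0.35 (RFC5).

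In dNTP supply 3 of 4 genes rose with AICAR in sh-con (against 14.6% of all genes), with a median of 0.39. TK1 rose by 0.81 ± 0.16 (adjusted p = 0.000688), from 8.96 and 9.06 to 9.88 and 9.77. RRM1 rose by 0.40 ± 0.15 (adjusted p = 0.0456) and TYMS by 0.39 ± 0.13 (adjusted p = 0.026), both lost when arrays were centred (adjusted p = 0.267 and 0.233) and when any of the 4 sh-con DMSO and sh-con AICAR arrays was left out (0.0977 to 0.168 and 0.0667 to 0.133). The RRM1 call was also lost without any 1 of the sh-p53 DMSO or sh-p53 AICAR arrays. In all, 11 of the 20 alternatives ended the RRM1 call and 6 ended the TYMS call. RRM2 differed in the other direction, by -0.55 ± 0.21 (adjusted p = 0.0502), and was called under several alternatives, so the subunits of ribonucleotide reductase stood on opposite sides of 0. Of the chromatin genes UHRF1 fell by 0.88 ± 0.14 (adjusted p = 9.56e-05), from 8.88 and 8.86 to 8.12 and 7.86, while its dimmer probe set differed by -0.05. CHAF1A fell by 0.54 ± 0.14 (adjusted p = 0.00611), lost without sh-con DMSO replicate 1 (0.0711) or sh-con AICAR replicate 2 (0.0536), and DTL (-0.27 ± 0.17) and CHAF1B (-0.20 ± 0.16) were not called.

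**Figure D3:**
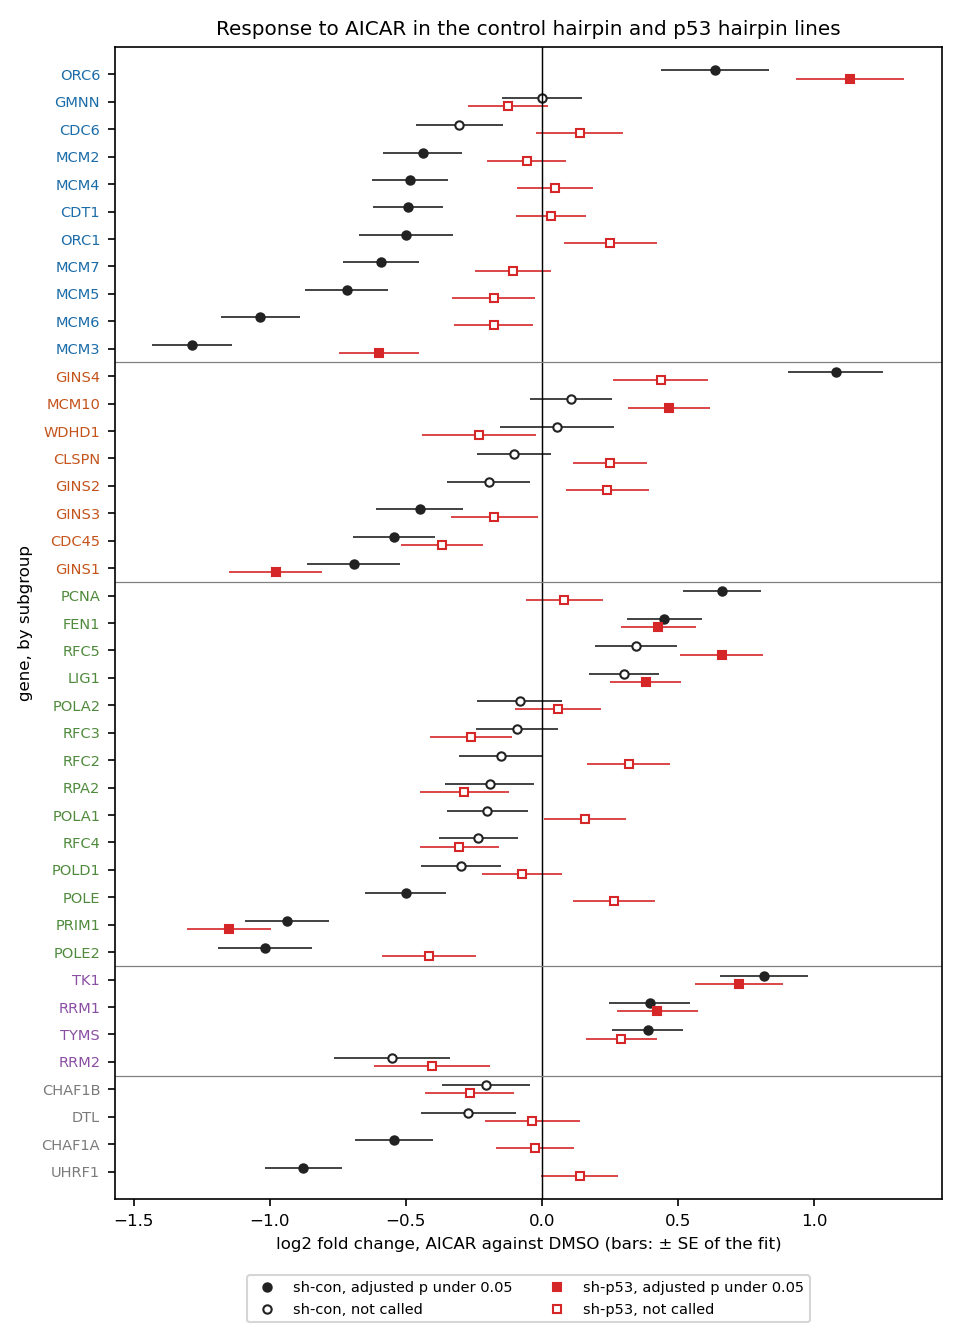
Log2 fold change of each gene (rows, by role) with AICAR against DMSO in sh-con (black circles) and sh-p53 (red squares), with bars of ± 1 SE of the fit over 2 arrays against 2; filled symbols passed at an adjusted p under 0.05. In sh-con the MCM subunits lie between -1.28 and -0.44, and 10 symbols are filled in sh-p53.

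With AICAR in the sh-p53 line fewer members passed. The member medians of its arrays, relative to sh-con DMSO, were -0.14 and 0.09. Of 41 members 7 rose (17.1%, against 16.2% of all genes) and 3 fell (7.32%, against 21.6%), around a median of 0.03 that became -0.12 when arrays were centred and 0.09 after quantile normalisation again. The split was 3 higher and 6 lower with centring and 12 and 3 with quantile normalisation, so the balance of direction in this line depends on the scaling. Without sh-p53 DMSO replicate 1 the number that rose was 3, without sh-p53 AICAR replicate 2 it was 4, and without either sh-con AICAR array, which lie outside the comparison, the number that fell was 5.

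ORC6 rose by 1.13 ± 0.20 (adjusted p = 0.000242), from 8.25 and 8.79 in sh-p53 DMSO to 9.51 and 9.80. TK1 rose by 0.73 ± 0.16, from 8.95 and 9.26 to 9.77 and 9.89, and RFC5 by 0.66 ± 0.15, from 8.13 and 8.25 to 8.71 and 8.99. In these 3 genes both AICAR arrays lay above both DMSO arrays. MCM10 (0.47 ± 0.15), FEN1 (0.43 ± 0.14), RRM1 (0.42 ± 0.15) and LIG1 (0.38 ± 0.13) also rose, and each of these 4 calls was lost when arrays were centred (adjusted p = 0.17 to 0.266). Leaving out sh-p53 DMSO replicate 1 ended all 4 calls (0.103 to 0.236). FEN1 and LIG1 were also lost without sh-p53 DMSO replicate 2 or sh-p53 AICAR replicate 1 (0.0611 to 0.166), FEN1, RRM1 and MCM10 without sh-p53 AICAR replicate 2 (0.0952 to 0.156), and RRM1 without sh-p53 AICAR replicate 1 (0.0679). PRIM1 fell by 1.15 ± 0.15 (adjusted p = 1.65e-05), from 8.80 and 9.03 to 7.67 and 7.85, and GINS1 by 0.98 ± 0.17, from 9.61 and 9.95 to 8.64 and 8.97. MCM3 fell by 0.60 ± 0.15, from 9.66 and 9.77 to 8.97 and 9.25, a call lost without sh-p53 AICAR replicate 1 (adjusted p = 0.0681). The other MCM subunits lay between -0.18 and 0.05 with no call, and no chromatin gene was called.

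Set beside each other, 4 members rose with AICAR in both lines (ORC6, FEN1, RRM1 and TK1) and 3 fell in both (MCM3, GINS1 and PRIM1). Another 13 fell in sh-con without a call in sh-p53, 3 rose in sh-con without one in sh-p53 (GINS4, PCNA and TYMS), and 3 rose in sh-p53 without one in sh-con (MCM10, RFC5 and LIG1). The shares of all genes with these pairs of calls were not computed. Under some alternatives the calls of FEN1 and RRM1 were lost in both lines, that of ORC6 in sh-con and that of MCM3 in sh-p53. In sh-p53, GINS4, POLE2, CDC45, TYMS and POLE gained a call under 9, 8, 5, 2 and 1 of the 20 alternatives. In sh-con, RFC5 and LIG1 each gained a call under 1 alternative. A call in a single line does not show that the lines differ. The interaction itself was called for 1 member, against 0.304% of all genes, and 0 were called lower, against 0.709%. An unadjusted p under 0.05 was reached by 12 higher and 2 lower members, against 6.82% and 5.67% of all genes. The called member was UHRF1, at 1.02 ± 0.20 (adjusted p = 0.0191), whose sh-p53 arrays stood at 8.82 and 9.07 with AICAR and 8.77 and 8.84 in DMSO. This call was lost with the mean of its probe sets (adjusted p = 0.194) and without sh-con DMSO replicate 1 (0.101), sh-con DMSO replicate 2 (0.0914), sh-p53 DMSO replicate 1 (0.0832), sh-p53 DMSO replicate 2 (0.0782) or sh-p53 AICAR replicate 2 (0.0944).

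MCM6 came next, with an interaction of 0.86 ± 0.21 (95% interval 0.42 to 1.29; adjusted p = 0.0528). The interactions of the 6 MCM subunits ran from 0.38 to 0.86, none called with limma and 5 with an unadjusted p under 0.05. By role, the interaction medians were 0.53 for licensing, 0.23 for the fork, 0.11 for the polymerases and -0.03 for dNTP supply. No median is given here for chromatin control, which holds the called UHRF1. Its AICAR differences in sh-con and sh-p53 were -0.88 and 0.14 for UHRF1 and -0.54 and -0.03 for CHAF1A. They were -0.27 and -0.04 for DTL and -0.20 and -0.27 for CHAF1B. The largest negative interactions were those of GINS4 (-0.64 ± 0.25, adjusted p = 0.253) and PCNA (-0.58 ± 0.20, adjusted p = 0.199). Within AICAR, the sh-p53 arrays were higher than the sh-con arrays for 12 members (29.3%, against 4.13% of all genes) and lower for 1 (2.44%, against 4.69%), around a median of 0.21. MCM6 (0.96 ± 0.15, adjusted p = 0.000417), UHRF1 (0.95 ± 0.14) and POLE (0.68 ± 0.15) led, and PCNA was the lower gene (-0.54 ± 0.14, adjusted p = 0.0234). A dimmer probe set of UHRF1 differed by 0.26, and the POLE call was lost under 2 alternatives. The counts of higher and lower members rest on single arrays, since 2 were higher without sh-con AICAR replicate 2 or sh-p53 AICAR replicate 2. None was lower without sh-con AICAR replicate 1, sh-p53 AICAR replicate 1 or sh-p53 AICAR replicate 2, and 2 were without sh-con AICAR replicate 2.

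**Figure D4:**
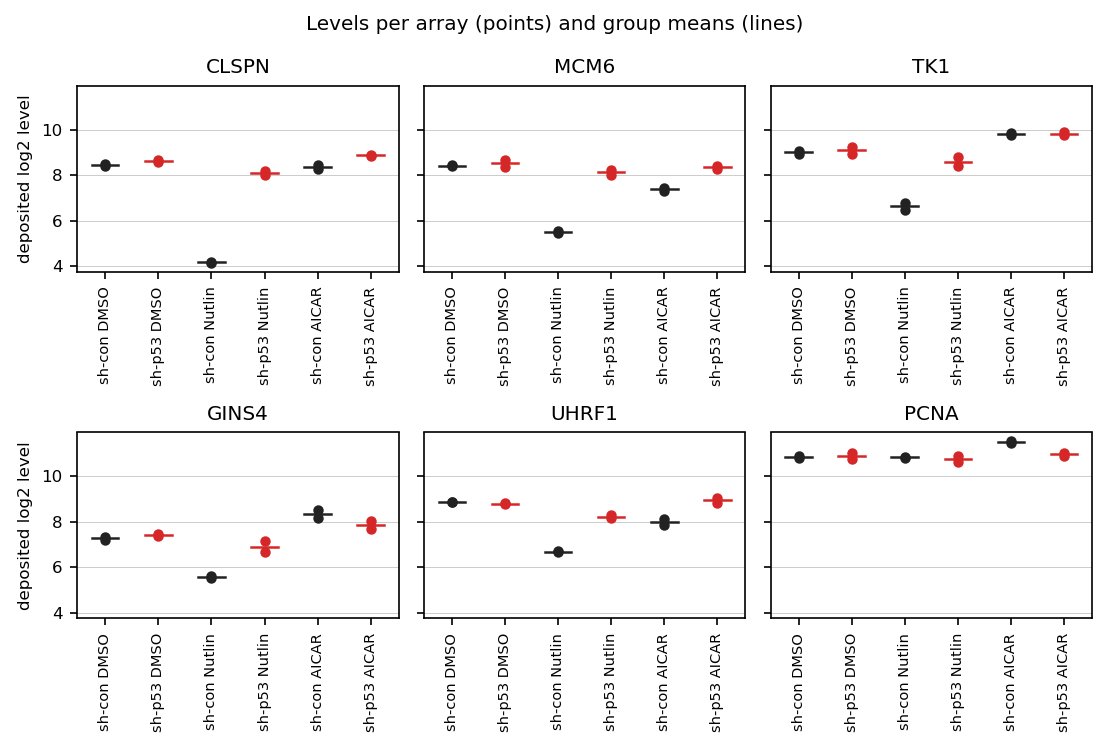
Deposited log2 level of 6 genes in each of the 12 arrays (points) with the mean of each group of 2 (lines), sh-con in black and sh-p53 in red. CLSPN, MCM6, TK1, GINS4 and UHRF1 are lowest in sh-con Nutlin; TK1 and GINS4 stand above sh-con DMSO with AICAR in sh-con, and PCNA stays near 10.8 except with AICAR in sh-con.

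Set directly against AICAR in the sh-con line, Nutlin arrays were lower for 40 of 41 members (97.6%, against 16.9% of all genes), with a median of -1.89, and higher for none with limma, against 17.9%, nor at an unadjusted p under 0.05 (0 members, against 21.3%). CLSPN differed most (-4.18 ± 0.13), then CDC6 (-3.62 ± 0.16) and ORC6 (-3.34 ± 0.20), and GMNN was not called (-0.08 ± 0.15, adjusted p = 0.768). A dimmer probe set of CLSPN differed by -3.48, which is smaller in size than the difference of CDC6. PCNA (-0.67 ± 0.14) and LIG1 (-0.36 ± 0.13, adjusted p = 0.0397) were called here. The LIG1 call was lost without any 1 of the sh-con arrays or the sh-p53 DMSO arrays, and under both other scalings (adjusted p = 0.0513 and 0.178). In all, 12 of the 20 alternatives ended the LIG1 call. In the sh-p53 line 22 members were lower in Nutlin (53.7%, against 15.6%) and 2 higher (4.88%, against 19.0%), with a median of -0.43. ORC6 (-1.43 ± 0.20), TK1 (-1.23 ± 0.16) and MCM10 (-1.19 ± 0.15) were lowest, and the 2 higher were PRIM1 (0.80 ± 0.15) and GINS1 (0.57 ± 0.17). The number lower was 14 without sh-p53 AICAR replicate 2, and 1 was higher without sh-p53 Nutlin replicate 1 or sh-p53 AICAR replicate 1.

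Compared by role, every role was lower with Nutlin in sh-con, whereas with AICAR the medians took both signs. Relative to the sh-con DMSO means, the licensing medians were -2.47 and -2.80 in the sh-con Nutlin arrays and -0.38 and -0.59 in the sh-con AICAR arrays. The fork medians were -2.51 and -2.71 with Nutlin and -0.14 and -0.16 with AICAR, and the polymerase medians -2.04 and -2.20 with Nutlin and -0.03 and -0.20 with AICAR. The dNTP medians were -1.83 and -1.85 with Nutlin but 0.41 and 0.38 with AICAR in sh-con, and 0.18 and 0.29 with AICAR in sh-p53. The licensing medians in sh-p53 AICAR were -0.14 and -0.01. Under AICAR the dNTP medians were thus above those of the other 4 roles in all 4 arrays, although that group has only 4 genes, of which RRM2 had negative differences in both lines. No test was made of a difference between roles.

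**Figure D5:**
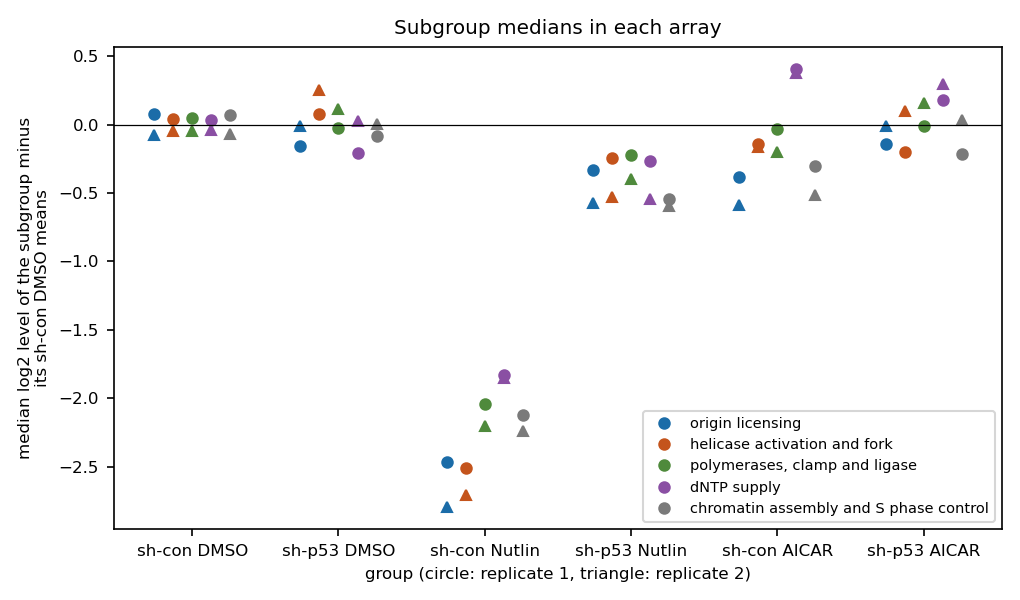
Median log2 level of each role (colours) in each array, relative to its sh-con DMSO means; circles are replicate 1 and triangles replicate 2. All 5 roles lie below -1.8 in sh-con Nutlin, and the dNTP genes are the highest role in the 4 AICAR arrays.

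Replication genes outside the 41 gave a wider view. Of 55 such genes listed, 54 had a probe set and 53 were tested. With Nutlin in sh-con 44 fell (83.0%, against 18.9% of all genes) and 2 rose (3.77%, against 11.3%), with a median of -1.08, beside -2.24 for the 41. EXO1, an exonuclease of mismatch repair and end resection (-3.71 ± 0.17), fell most, to a mean below the dim level, followed by TICRR, which loads CDC45 (-3.47 ± 0.15), the topoisomerase TOP2A (-3.08 ± 0.14) and MCM8 (-3.01 ± 0.16). The 2 that rose, named here after their values were seen, were RRM2B, the p53-inducible small subunit of ribonucleotide reductase (2.24 ± 0.15, adjusted p = 2.31e-09), and POLD4, the smallest subunit of polymerase delta (0.89 ± 0.14, adjusted p = 0.000109). RRM2, the alternative small subunit, and POLD1, the catalytic subunit of polymerase delta, fell. In sh-p53 none of the 53 was called with Nutlin by limma, where an unadjusted p under 0.05 was reached by 18 lower genes (34.0%, against 4.08% of all) and 1 higher gene (1.89%, against 2.14%), and RRM2B stood at 0.65 ± 0.15. The interaction was called higher for 31 (58.5%, against 4.67% of all genes) and lower for 2 (3.77%, against 2.73%), RRM2B (-1.59 ± 0.21) and POLD4 (-0.69 ± 0.20).

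With AICAR in sh-con, 7 of the 53 rose (13.2%, against 14.6% of all genes) and 17 fell (32.1%, against 23.2%). In sh-p53, 12 rose (22.6%, against 16.2%) and 15 fell (28.3%, against 21.6%). ASF1B, a histone chaperone that hands histones to chromatin assembly factor, rose in both lines (1.35 ± 0.16 and 1.34 ± 0.16), whereas its paralogue ASF1A fell in both (-0.52 ± 0.15 and -1.20 ± 0.15). DNA2, a nuclease and helicase of Okazaki fragment processing, fell by 0.84 ± 0.17 and 1.27 ± 0.17. TICRR rose by 0.75 ± 0.15 in sh-con and by 1.06 ± 0.15 in sh-p53. RRM2B rose by 1.15 ± 0.15 in sh-con and differed by 0.29 ± 0.15 in sh-p53. CAD, the multi-enzyme protein that begins pyrimidine synthesis, fell by 1.12 ± 0.14 in sh-con and differed by 0.03 ± 0.14 in sh-p53, and its interaction of 1.14 ± 0.20 (adjusted p = 0.0095) was the only one called among the 53.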

How the data were processed

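Total RNA of HepG2 cells was extracted with TRI reagent, labelled with biotin and hybridised to Affymetrix arrays, per the labels' protocols. The authors deposited log2 values, 1 per probe set and array, from 2.14 to 14.33, for 33297 probe sets. The submitters' processing notes name RMA, which corrects background, normalises by quantiles and summarises probes, and Partek; their versions and settings are not given in the sources used here. This method removes in part a change shared by most transcripts and understates changes of dim genes. Arrays carry no read depth, and their number limits the precision.

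The annotation gave 1 symbol to 19460 probe sets and several to 1754, and did not list 12083. A gene was its brightest probe set (769 of 18417 had more than 1). Genes whose mean lay below the 25th percentile (4.58), 4604 in all, were left out and 13813 tested. Group means of all 12 arrays were fitted with limma 3.58.1 in R 4.3.3 and data.table version 1.17.8 (6 residual and 11.3 prior degrees of freedom), with 2-sided Benjamini-Hochberg adjusted p under 0.05 called, in 11 comparisons. The fit was tested on simulated data. Intervals are 95%. Start regions came from RefSeq (GRCh38.p14) through Python 3.11.15 and pandas 2.3.3, and figures from matplotlib 3.10.9. Of the 41 members 37 had an entry, and MCM4, MCM5, GINS4 and RPA2 had none. Where a gene had several entries, the first listed was used.

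Named with values in each comparison and role were up to 3 called members with the largest change and all uncalled members where these were 5 or fewer. Array values were given for the largest sh-con changes under either compound, and up to 4 other replication genes were named per comparison. Members and lists were chosen with earlier results of these data known. Alternatives changed the scaling, the filter, the probe set rule, the spread, the block and the arrays.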

Additional observations from a re-analysis of the deposited data

Results flagged for a closer look

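The response to Nutlin differed between the lines by the interaction test (sh-p53 minus sh-con, limma, adjusted p under 0.05) for 36 members, all higher in sh-p53. Of the genes named above, the licensing genes CDC6, ORC1 and MCM3 had differences of 3.68, 2.69 and 2.58. Among fork genes CLSPN stood at 3.74 (2.72 in its dimmer probe set), MCM10 at 2.65 and GINS2 at 2.40. POLE2, RFC3 and RFC5 of the polymerase and clamp group stood at 2.32, 2.09 and 2.02. The dNTP genes RRM2, TK1 and RRM1 stood at 3.18, 1.87 and 1.11, and the chromatin genes DTL, CHAF1A and UHRF1 at 3.61, 1.66 and 1.61. A dimmer probe set of UHRF1 stood at -0.14. The response to AICAR differed for 1 member, UHRF1, at 1.02, and its dimmer probe set stood at 0.17. Groups of 2 arrays are too small for a test of single outlying arrays.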

How the results depend on the processing

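Results were recomputed under 8 other settings and with each of the 12 arrays left out, 20 in all. No difference that was called turned its sign. Of the called members, the call held under every setting for 38 of 38 with Nutlin in sh-con, 35 of 36 in the Nutlin interaction, 39 of 40 in Nutlin against AICAR in sh-con and 37 of 37 between the lines in Nutlin. It held for 11 of 23 with AICAR in sh-con, 5 of 10 with AICAR in sh-p53, 0 of 1 in the AICAR interaction, 15 of 24 in Nutlin against AICAR in sh-p53 and 2 of 13 between the lines in AICAR. Centring each array on its median gave 3 higher with AICAR in sh-con, and 3 higher and 6 lower with AICAR in sh-p53. It moved the AICAR medians to -0.37 in sh-con and -0.12 in sh-p53 for all members, -0.63 and -0.21 for licensing, -0.31 and -0.08 for the polymerases, 0.25 and 0.21 for dNTP supply, and -0.55 and -0.18 for chromatin control. The shift follows from the centring, which moved the AICAR differences of the members by -0.14 and -0.15. Quantile normalisation again gave 12 higher with AICAR in sh-p53, 3 higher in the AICAR interaction, and 2 and 3 lower in sh-p53 than sh-con in Nutlin and in AICAR. The stricter filter on dim genes gave 1 lower with Nutlin in sh-p53, 5 lower with AICAR in sh-p53 and 2 higher in the AICAR interaction. The arrays of a comparison alone gave 2 lower with Nutlin in sh-p53, 6 lower with AICAR in sh-p53 and 0 lower between the lines in AICAR. The spread as a trend gave 1 lower with Nutlin in sh-p53 and 2 higher in the AICAR interaction, and the mean of all probe sets gave 0 there. Why these counts moved was not tested. Leaving out each array gave 3 to 7 higher and 8 to 17 lower with AICAR in sh-con, 0 to 1 lower with Nutlin in sh-p53, 3 to 8 higher and 2 to 5 lower with AICAR in sh-p53, and 0 to 1 higher in the AICAR interaction. It gave 1 to 2 higher and 14 to 22 lower in Nutlin against AICAR in sh-p53, and 2 to 12 higher and 0 to 2 lower between the lines in AICAR. The lone array left was assumed to vary like the other groups. The labels do not say what a replicate number marks. Over 15 pairs of groups, the differences between replicates correlated across genes at -0.558 to 0.567, 7 of them over 0.1. The 3 sh-con groups and sh-p53 Nutlin correlated with each other at 0.252 to 0.567 and sh-p53 DMSO with sh-p53 AICAR at 0.264, while pairs across these sets lay between -0.558 and 0.0277. A batch shared under other numbers was not tested. With the replicate block 38 members fell with Nutlin in sh-con, and 7 rose and 17 fell with AICAR in sh-con. With it 36 were higher in the Nutlin interaction and 1 in the AICAR interaction, and no count moved by over 1.5 times. The block took the replicate numbers as they stand, so it could not remove shifts between duplicates that ran in opposite directions between groups. These counts therefore do not decide whether a batch matters. Low signal limits CLSPN and POLE2, whose sh-con Nutlin means lay below the dim level.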
